A study of Caenorhabditis elegans with 2 samples.

Results

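The C-type lectin genes of Caenorhabditis elegans, named clec-, were taken as all protein-coding genes of the WBcel235 annotation whose symbol starts with clec-. They numbered 240 of 19985 protein-coding genes. They carried 237 different symbols, because clec-15, clec-209 and clec-249 were each given to 2 genes. The RefSeq product named a C-type lectin for 207 of the 240, and the others were named after another domain, most often PAN-3 (14 genes), VWFA (8 genes) or CW (5 genes).

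The study mapped where HRDE-1, also called WAGO-9, sits on chromatin, by chromatin immunoprecipitation and sequencing (ChIP-seq) of whole hermaphrodite young adults of strain YL557, 48 h after release from starvation as L1 larvae. YL557 is 1 transgenic line that stably expresses WAGO-9 fused at its C-terminus to GFP-FLAG. There was 1 group with 2 biological replicates, and the labels name the antibody both as anti-GFP and as hrde-1. No untagged or mutant animals were analysed here, so the results describe where sites lie and compare no conditions.

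HRDE-1 is an Argonaute protein of germline nuclei that carries small interfering RNAs to nascent transcripts, where it promotes silencing that can be inherited. C-type lectins are proteins with a carbohydrate-binding type of fold. In the worm they form a very large family in which many members are secreted, several are induced in the intestine by bacterial infection, and others act in the reproductive system or in neurons.

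Each replicate had its own list of candidate sites, 24269 for replicate 1 and 30000 for replicate 2. A pooled list held 30000 candidates, and 1341 sites passed the irreproducible discovery rate (IDR) step, which uses how alike sites rank in the replicates. The IDR peaks at C-type lectin genes had the same ranks in the IDR list and in the pooled list. An IDR peak is therefore read here as a strong pooled site, not as agreement of the replicates at that site. A candidate list is permissive and takes in background, so the candidates are read here as ranked positions. The signal is the authors' score on a scale that is not stated. It ran from 14.18 to 6146 (median 23.03) in the pooled list and from 73.95 to 6146 (median 100.6) among IDR peaks, and it is used only to rank sites within a list. A gene had a site when a summit, the authors' point of highest signal, lay between 500 bp upstream of its start and 500 bp past its 3′ end. Read depth was unknown. Intervals below are exact 95% Clopper-Pearson intervals that cover counting error only, and neighbouring genes can share a site. Whole animals were used, so sites in germline and in somatic nuclei cannot be told apart.

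IDR peaks lay in the windows of 5 C-type lectin genes, clec-125, clec-126, clec-127, clec-142 and clec-180. The 4 summits behind them are shown here because they were the strongest sites of the family and because 3 of them sat at a small RNA gene. Each line gives 101 bases of the RefSeq genome (WBcel235, the ce11 build) centred on a summit, on the plus strand. Capitals mark annotated sequence: the tRNA-Thr gene W09G10.t3 in the first line, the tRNA-Lys gene W10G11.t1 in the second, the first 6 bases of the snoRNA gene F32E10.10 in the third, and coding sequence of clec-142 itself in the fourth.
clec-125 and clec-126, chrII:3519048-3519148: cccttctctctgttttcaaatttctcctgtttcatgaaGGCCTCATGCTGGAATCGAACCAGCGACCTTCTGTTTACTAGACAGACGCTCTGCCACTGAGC
clec-127, chrII:3567724-3567824: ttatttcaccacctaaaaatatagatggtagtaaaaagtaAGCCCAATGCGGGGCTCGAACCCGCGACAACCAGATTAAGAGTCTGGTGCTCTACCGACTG
clec-180, chrIV:7574027-7574127: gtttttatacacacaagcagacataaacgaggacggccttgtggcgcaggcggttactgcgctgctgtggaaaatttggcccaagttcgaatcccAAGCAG
clec-142, chrII:8280828-8280928: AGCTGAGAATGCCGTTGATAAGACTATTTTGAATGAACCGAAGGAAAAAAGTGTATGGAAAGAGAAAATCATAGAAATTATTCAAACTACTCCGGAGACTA

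C-type lectin genes held listed sites less often than protein-coding genes as a whole in every list. The candidate lists take in background and no untagged animals were analysed, so these are counts of listed sites and not of proven HRDE-1 binding. In the pooled list 69 of 240 had a summit (28.8%, interval 23.1 to 34.9%), against 55.7% of all protein-coding genes. In replicate 1 the count was 88 (36.7%), against 56.3%, and in replicate 2 it was 80 (33.3%), against 56.9%. Among IDR peaks it was 5 (2.08%, interval 0.68 to 4.79%), against 8.23%. The direction was the same in the 2 replicates. No summit in any of the 4 lists was found at 118 of the 240 genes and at 6026 of all 19985 protein-coding genes. Neither replicate had a summit at 50.4% of the family, against 31.5% of all protein-coding genes. The IDR count rests on 5 genes, and it fell to 1 when sites nearer to another gene were left out. On that rule the share of all protein-coding genes fell to 4.99%.

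The share was below the background at each number of strongest sites used. With the strongest 1341 pooled candidates, 2.08% of C-type lectin genes had a site against 8.23% of all genes. These are the shares of the 1341 IDR peaks again, whose summits at C-type lectin genes had the same ranks in the pooled list. This point therefore adds nothing to the IDR result. With the strongest 5000 the shares were 8.33% and 23.4%, with 10000 they were 12.1% and 34.4%, and with 20000 they were 23.3% and 47.3%. As a ratio, the C-type lectin share was 0.253 of the background with the strongest 1341 pooled sites and 0.517 of it over the whole pooled list. The ratio did not move steadily between these ends. In replicate 1 it was 0.399 with 1341 sites, 0.311 with 5000 and 0.652 over the whole list, and in replicate 2 it was 0.256, 0.326 and 0.586.

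**Figure D1:**
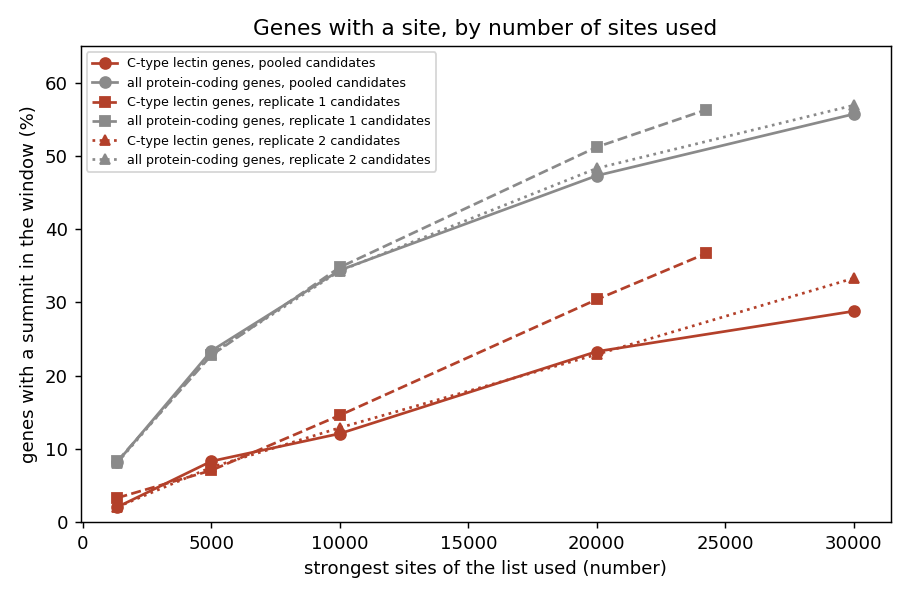
Share of genes with a summit in the window (vertical axis, %) against the number of strongest sites used from each list (horizontal axis), for C-type lectin genes (red) and all protein-coding genes (grey) in the pooled list and both replicates. The red lines stay below the grey lines at every number of sites, and the pooled shares over the whole list are 28.8% and 55.7%.

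Sites were also fewer per length of DNA. Merged C-type lectin windows held 16.6 pooled summits per 100 kb (119 summits in 718 kb), against 35.1 for the windows of all protein-coding genes and 35.7 for those on chromosome arms. IDR peaks gave 0.557 per 100 kb against 1.60. The genes were only slightly shorter than the rest, with a median length of 1787 bp against 2026 bp. Of the 69 genes with a pooled site, 31 (44.9%) had 2 or more, against 70.5% over all genes with a site, and the median of the strongest signal was 25.84 against 34.17. Part of the family consists of near-identical copies, where reads can be hard to place. The median share of window positions whose 31-base sequence recurs in the genome was 1.92%, against 0.544% for all genes. The 6 genes with shared symbols were repeated over their whole window and had no summit in any list. Among the 191 C-type lectin genes with at most 10% of repeated positions, 54 had a pooled site (28.3%), against 57.3% of all genes under the same limit.

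Most C-type lectin genes lie on chromosome arms, the outer terciles of each autosome, which held 201 of them (83.8%) against 53.4% of all protein-coding genes. The autosome centres held 36 and the X chromosome 3. By chromosome, V held 86, IV held 53, II held 48, I held 36 and III held 14. The share with a site was lower than the background in both regions: on arms 56 of 201 had a pooled site (27.9%, against 56.1% of all arm genes), and in centres 12 of 36 did (33.3%, against 60.8%). Among arm genes of 1000 to 3000 bp the shares were 25.3% (37 of 146) and 48.6%.

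Single chromosomes differed. On the arms of chromosome I, 8 of 35 C-type lectin genes had a pooled site (22.9%), where all protein-coding genes reached 70.4%. On the arms of chromosome IV the values were 11 of 46 (23.9%) and 60.6%, and on those of chromosome II they were 15 of 45 (33.3%) and 54.4%. On the arms of chromosome V, where all genes were at 37.7%, 17 of 69 had one (24.6%). The arms of chromosome III went the other way in the pooled list, with 5 of 6 (83.3%) against 74.7%, on few genes. Replicate 2 gave the same values, while replicate 1 gave 2 of 6 (33.3%) against 69.9%.

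**Figure D2:**
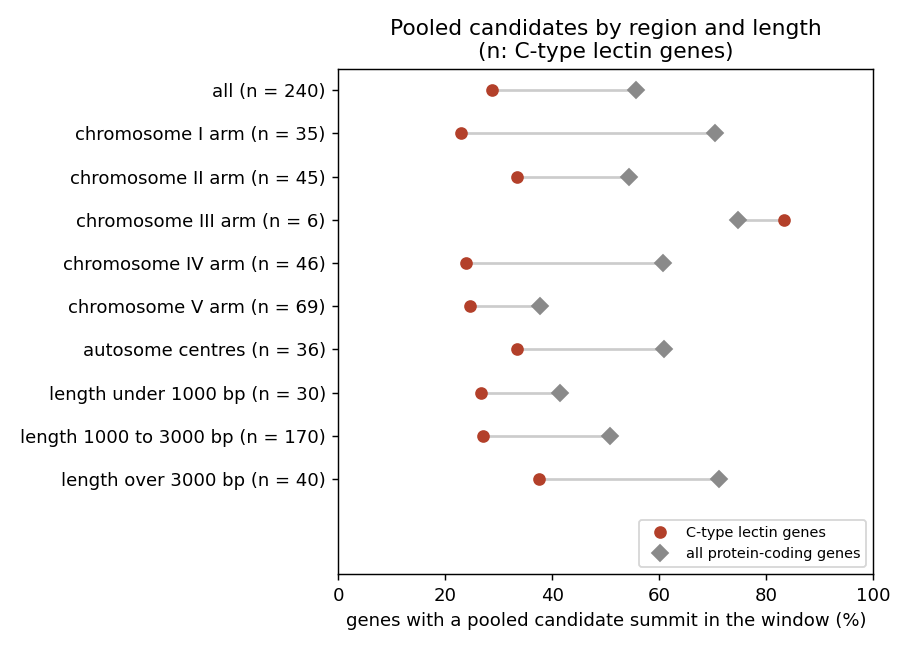
Share of genes with a pooled candidate summit (horizontal axis, %) for C-type lectin genes (red circles) and all protein-coding genes (grey diamonds) by chromosome region and gene length, with n the number of C-type lectin genes. The red point lies to the left in every line except the chromosome III arms, where it rests on 6 genes.

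C-type lectin genes often stand side by side. Runs of 3 or more with gaps of at most 20 kb made 20 clusters with 106 genes (44.2%), and 134 genes lay outside them. Clustered genes had a pooled site in 19 of 106 cases (17.9%, interval 11.2 to 26.6%) and the others in 50 of 134 (37.3%, interval 29.1 to 46.1%). Replicate 1 gave 29.2% in clusters and 42.5% outside, and replicate 2 gave 23.6% and 41%. On arms alone the pooled shares were 17 of 103 (16.5%) and 39 of 98 (39.8%). Median lengths were close, 1820 bp in clusters and 1715 bp outside. The repeated share of the window was also close, with medians of 1.77% and 2.11%. With genes over 10% repeated left out, the pooled counts were 11 of 84 (13.1%) and 43 of 107 (40.2%).

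The largest cluster, clec-40 to clec-33, put 13 genes in 30.7 kb of chromosome V (16839121 to 16869840). Within it 1 gene had a pooled site, clec-33, with a signal of 17.00. Sites of replicate 1 fell in the windows of 3 of its genes and sites of replicate 2 in those of 2. The next largest, clec-67 to clec-78 on chromosome IV (3922165 to 4014235), had 12 genes, 4 of them with a pooled site. Of the 20 clusters, 7 had no pooled summit at all, and 2 of these had no summit in any list. They were clec-165 to clec-170, with 6 genes, and clec-247 to clec-249, with 3. The latter includes both clec-249 genes, whose windows are repeated over their whole length, so reads there can be hard to place. The cluster clec-127 to clec-134 on chromosome II (3568117 to 3581475) included clec-127, the only clustered gene with an IDR peak in its window. That summit lay just outside the cluster, 343 bp past the 3′ end of clec-127 and inside a tRNA gene. The 6 other members had no summit in any list.

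**Figure D3:**
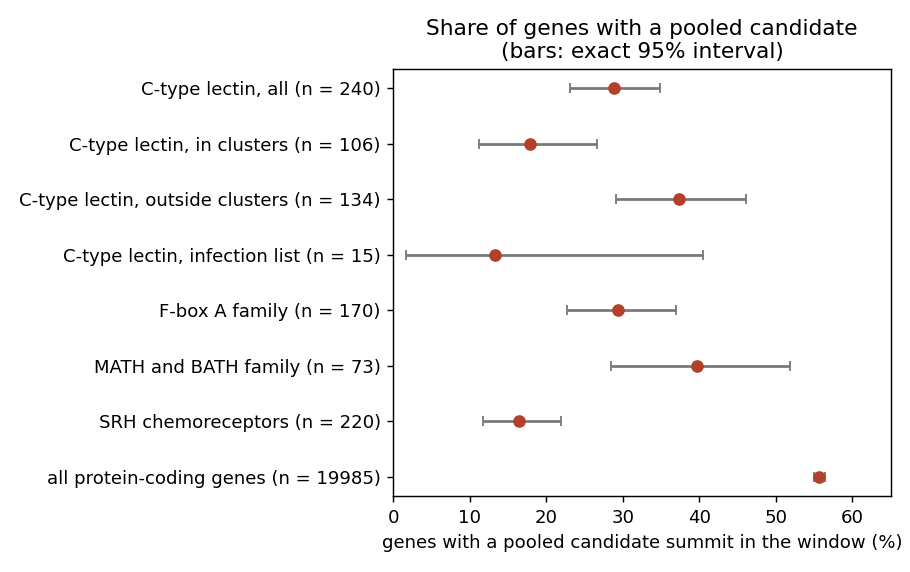
Share of genes with a pooled candidate summit (horizontal axis, %) for C-type lectin genes in and outside clusters, for the infection list and for other gene families. Points are shares and bars are exact 95% intervals over genes. Clustered C-type lectin genes stand at 17.9% and the others at 37.3%, and all protein-coding genes stand at 55.7%.

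Along the gene, sites were spread over both flanks and the body. Of 122 pooled gene and summit pairs, 20 lay in the upstream 500 bp (16.4%, against 13.5% for all protein-coding genes), 76 inside the gene, and 26 in the 500 bp past the 3′ end (21.3% against 20.5%). Inside the gene 49 of 76 summits fell in an exon (64.5%). Exons made up 55.3% of the bases of these genes, and the values for all protein-coding genes were 54.0% and 46.3%. Summits in soft-masked repeats numbered 34 (27.9%), close to the soft-masked share of the windows, 26.4%.

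A site in the window was not always the lectin gene's own by distance. It was put down to a neighbour when it lay outside the lectin gene and inside, or nearer to, another gene. That held for 23 of the 122 pooled pairs (18.9%, against 20.5% for all protein-coding genes). The neighbour was a tRNA or snoRNA gene in 6 pairs, a protein-coding gene in 13 and a gene of another type in 4. The median signal was 39.92 for neighbours' summits and 21.22 for those nearest to the lectin gene, with 10 genes owing every pooled site to a neighbour. With neighbours' summits left out, 59 genes kept a pooled site (24.6%), against 50.4% of all protein-coding genes.

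Among IDR peaks the neighbour's share was larger, and 4 of the 5 genes owed theirs to a small RNA gene. The gene clec-142 alone kept one (1 gene, against 4.99% of all genes on the same rule). Over all protein-coding genes, 1644 had an IDR peak and 997 kept one with neighbours' summits left out. In the pooled list these counts were 11124 and 10070, so the neighbour's share was larger among IDR peaks for all genes too. A tRNA, snoRNA or small nuclear RNA gene lay within 500 bp of 8 C-type lectin genes, and 4 of these had an IDR peak (50%). For all 758 protein-coding genes with such a neighbour the share was 45.5%. Among the 232 C-type lectin genes without one, 1 had an IDR peak (0.431%), against 6.76% of all 19227 protein-coding genes without one.

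**Figure D4:**
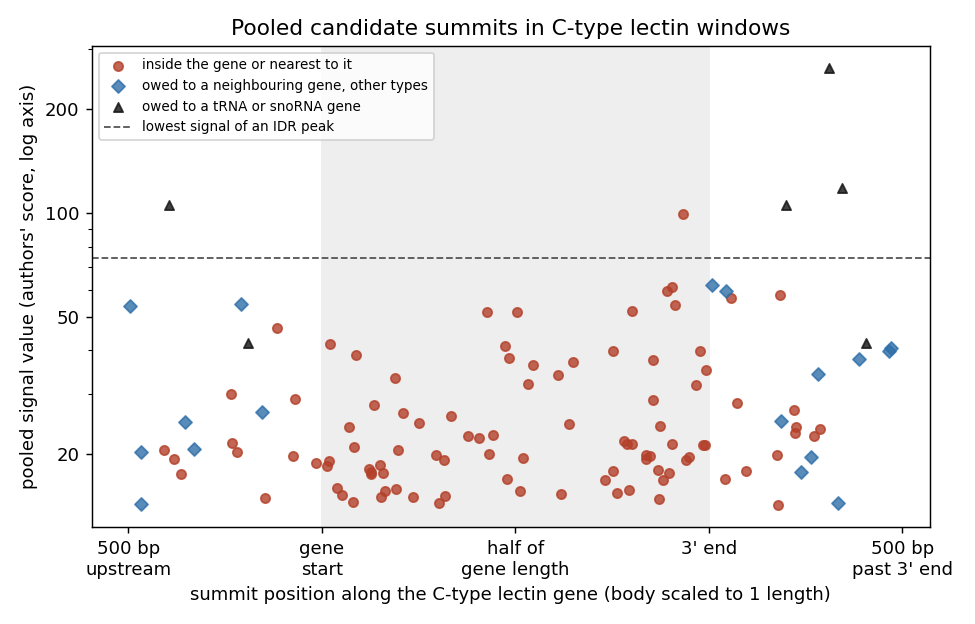
Each point is 1 pooled candidate summit in the window of a C-type lectin gene, placed along the gene (horizontal axis, body scaled to 1 length, flanks of 500 bp) by its signal (vertical axis, authors' score, log scale). Black triangles are summits nearer to a tRNA or snoRNA gene, blue diamonds those nearer to another neighbour, and the dashed line is the lowest signal of an IDR peak, 73.95. Of the summits above the line, only that of clec-142, at 99.65, is drawn as the gene's own.

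The strongest summit of the family was at clec-180 (chromosome IV, 7568893 to 7573766, plus strand), with a pooled signal of 264.2 and rank 47 in the pooled list. Its signal was 75.87 in replicate 1 and 189.3 in replicate 2, above 99.8% of sites in each. The summit lay 311 bp past the 3′ end of clec-180 and 45 bp from F32E10.10, a snoRNA gene, whose RNA class guides chemical modification of other RNAs. Its window thus covered the bases just before that gene.

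The next summits belonged to tRNA genes between lectin genes on chromosome II. The clec-127 summit (gene at 3568117 to 3569218, minus strand) had a signal of 118.3 in the pooled list, 38.68 in replicate 1 and 77.76 in replicate 2. It lay 343 bp past the 3′ end, inside the tRNA-Lys gene W10G11.t1. A second summit, at 105.5 in the pooled list, 33.17 in replicate 1 and 75.27 in replicate 2, fell between 2 lectin genes and counted for both. In the pooled list it was 200 bp past the 3′ end of clec-125 (3516003 to 3518898) and 396 bp upstream of clec-126 (3519494 to 3520712). This pooled summit lay inside the tRNA-Thr gene W09G10.t3, and the summits of replicates 1 and 2 lay 11 and 28 bp outside it. A weaker pooled summit between the same genes, at 41.97, lay in a further tRNA-Lys gene, W09G10.t2. That gene and W10G11.t1 have the same sequence, which occurs in 25 exact copies in the genome, so reads within them cannot be assigned to 1 copy, while W09G10.t3 occurs once.

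At clec-142 (chromosome II, 8278678 to 8281035, plus strand) the IDR peak was in the lectin gene itself. The summit lay in a coding exon 157 bp before the 3′ end, and the nearest other gene, nst-1, which encodes a nucleostemin-like nucleolar GTPase, was 284 bp away. Its signal was 99.65 in the pooled list (rank 687), 37.69 in replicate 1 and 55.68 in replicate 2, above 98.1% and 95.4% of the sites of those lists. Inside the gene there were 3 pooled summits, 2 of replicate 1 and 5 of replicate 2. Each of these lists had 1 more summit just past the 3′ end, and the pooled list and replicate 2 had 1 more each in the upstream neighbour mrpl-10, a mitochondrial ribosomal protein gene.

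Below the IDR peaks, the strongest signals often came from more than 1 site of a window, and some of these sites lay in the neighbour. The gene clec-87, whose product is a chondroitin proteoglycan of the reproductive system, had a summit of 51.89 in the pooled list inside the gene, with 29.39 in replicate 1 (above 96.5% of the list) and 26.12 in replicate 2 (76.3%). A stronger site of the same window, at 62.06 in the pooled list and 61.87 in replicate 2, lay in iars-2, a tRNA synthetase gene, and replicate 1 had no summit there. At clec-141 a summit of 59.46 in the pooled list lay in the lectin gene, with 20.22 in replicate 1 (90.8%) and 36.96 in replicate 2 (89.2%). A summit of 59.70 lay in mog-5, which encodes a splicing helicase of the germline, with 33.02 in replicate 1 and none there in replicate 2. The gene clec-264 had 4 summits inside it in each of these lists. The strongest were 61.18 in the pooled list, 43.69 in replicate 1 (98.8%) and 25.10 in replicate 2 (74.1%), so replicate 1 ranked this gene higher.

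Replicate 2 ranked other members higher than replicate 1 did. The strongest signal of clec-239 was 58.07 in the pooled list, 14.08 in replicate 1 (above 76.2% of the list) and 38.35 in replicate 2 (90.1%). For clec-221 the values were 51.88, 14.48 (78.0%) and 37.01 (89.3%). Both genes were thus above the median of 43.4% for C-type lectin genes with a site in replicate 1. At clec-90 the site just past the 3′ end had 56.69 in the pooled list, 8.703 in replicate 1 (30.5%) and 45.19 in replicate 2 (93.0%). The pooled site inside clec-224, at 41.70, was matched by 31.67 in replicate 2, and the summits of replicate 1 in that window, up to 9.253, lay in the neighbouring Elongator gene elpc-3. The pooled site of clec-147, at 39.86, had a partner of 33.54 in replicate 2 and none in the window in replicate 1, whose lowest listed signal was 6.989.

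The gene clec-78, which spans 25134 bp, had the most pooled summits of the family, 10, the strongest at 51.66, with strongest signals of 12.73 in replicate 1 and 37.89 in replicate 2. At clec-50, 4 summits reached 31.81 in the pooled list and 26.98 in replicate 2, and replicate 1 had none. A strong site owed to a neighbour was seen at clec-57, whose 53.81 summit lay in the non-coding RNA gene F08H9.13, while replicate 2 had a weaker site of 14.47 elsewhere in the window and replicate 1 had none. At clec-5 the strongest site, at 39.92, lay in C35D10.1. At clec-178 it was 40.56 and lay in skn-1, the stress-response transcription factor gene that contains clec-178. For clec-80 the strongest site was 41.19, inside the lectin gene.

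**Figure D5:**
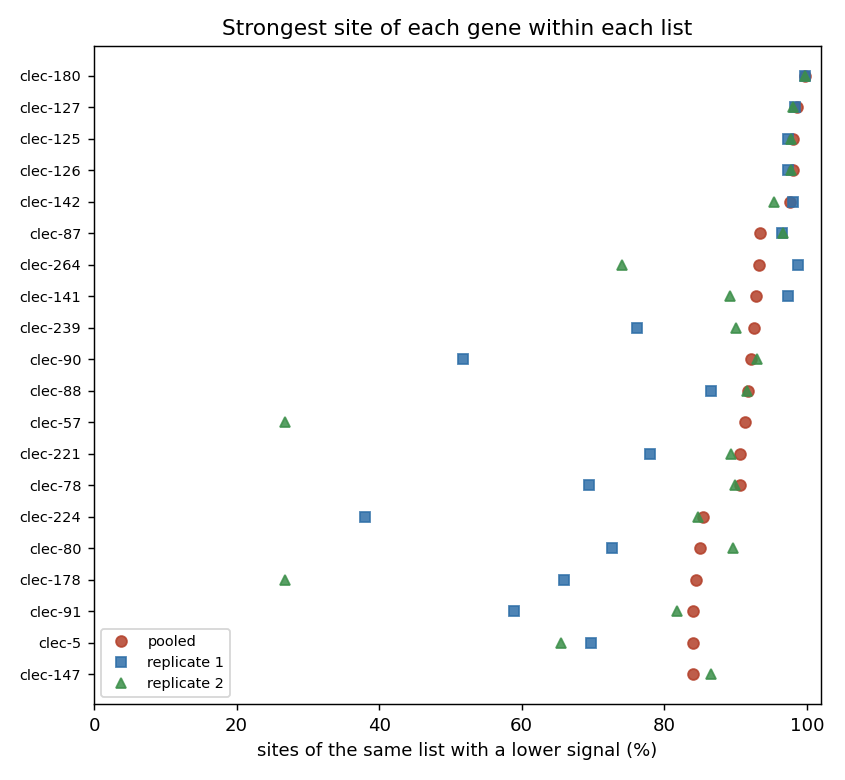
Share of sites of the same list with a lower signal (horizontal axis, %) for the strongest site of the 20 C-type lectin genes with the highest pooled signal, in the pooled list and each replicate. The site can differ between lists and can lie in a neighbouring gene. The 5 genes with an IDR peak stand above 95% in all 3 lists, and lower genes spread widely, with no point where a replicate had no site.

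Replicates agreed less often on C-type lectin genes than on genes in general. Both replicates had a summit in the window of 49 genes (20.4%, against 44.6% of all protein-coding genes), replicate 1 alone in 39 and replicate 2 alone in 31. Of the genes with a site in either replicate, 41.2% had it in both, against 65.1% over all genes. In 24 of the 49 genes the summits of the 2 replicates lay within 100 bp of each other (49%, against 62.9%). The lectin sites were also weaker: the median of the strongest site was above 43.4% of the list in replicate 1 and 58.8% in replicate 2, against 71% and 76.1% over all genes. The part of signal strength in the lower agreement was not tested.

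Of a list of 15 members known from infection studies, 2 had a pooled summit (13.3%, interval 1.66 to 40.5%) and none an IDR peak. The interval holds the 28.8% of the whole family and lies below the 55.7% of all protein-coding genes. These were clec-67, at 21.88 with 19.50 in replicate 2, and clec-49, at 24.51 with 7.532 in replicate 1, and neither was found in both replicates. Replicate 1 had sites at 6 of the 15 (40%, against 36.7% of the family), namely clec-4 (9.101), clec-39 (7.961), clec-49, clec-52 (7.108), clec-66 (10.02) and clec-85 (18.19). Replicate 2 had them at clec-4 (16.27) and clec-67. The other 8, clec-41, clec-42, clec-60, clec-61, clec-65, clec-70, clec-71 and clec-86, had no summit in any list, and neither had clec-38, reported in axon outgrowth. The 3 genes linked to reproductive tissue, clec-87, clec-88 and clec-91, all had a summit in the pooled list and in both replicates, where 44.6% of all protein-coding genes had one in both. With 3 genes the interval of the share runs from 29.2% upward. Both this list and the infection list were chosen with earlier results of these data known, so their counts test no contrast. In the regions of these genes many genes had a pooled site. The shares were 70.4% on the arms of chromosome I (clec-87), 60.7% in the centre of II (clec-88) and 77.3% in the centre of I (clec-91). For clec-88 the summit inside the gene had 54.15 in the pooled list, 17.64 in replicate 1 and 41.31 in replicate 2, and a pooled summit of 54.70 was nearer to the neighbouring anillin gene ani-2. For clec-91 the site close to the 3′ end had 39.94 in the pooled list and 29.42 in replicate 2, and the only summit of replicate 1, at 11.20, lay at the start of the gene. None of the 3 had an IDR peak.

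The promoters of the family were searched for TGATAA, the letters bound by GATA factors such as ELT-2 in intestinal genes, on either strand from 250 bases before to 50 after the start. They were present at 129 of 240 C-type lectin genes (53.8%, interval 47.2 to 60.2%), against 30.2% of all 19973 promoters, with a median GC content of 34.0% against 34.3%. Among the 15 infection genes 14 had them. Genes with and without a pooled site had them about as often, 38 of 69 (55.1%) and 91 of 171 (53.2%).

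Other large or immune gene families are set beside the C-type lectins as counts, without a test of the differences. The F-box A family, with protein-degradation adaptors, had a pooled site at 50 of 170 genes (29.4%, interval 22.7 to 36.9%), and the MATH and BATH family at 29 of 73 (39.7%). The SRH chemoreceptors were lowest, at 36 of 220 (16.4%, interval 11.7 to 21.9%). Immune effector families varied and were small. Lysozymes had a pooled site at 3 of 16 genes (18.8%, interval 4.05 to 45.6%) and caenacins at 2 of 11 (18.2%, interval 2.28 to 51.8%). These 2 families have short genes, with medians of 1168 and 513 bp, and 41.5% of all protein-coding genes under 1000 bp had a pooled site. The saposin-like genes, with a median of 729 bp, stood at 13 of 31 (41.9%, interval 24.5 to 60.9%). The galectins, which bind sugars by another fold, stood at 7 of 12 (58.3%). All 7 genes of the p38 MAP kinase immune pathway had a pooled site, and atf-7, skn-1 and tir-1 of these also had an IDR peak. These genes are longer, with a median of 7419 bp against 1787 bp, and 71.2% of all protein-coding genes over 3000 bp had a pooled site.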

How the data were processed

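ChIP-seq of 2 biological replicates, numbered by the labels, was used as site lists on ce11. The values are the signal column of lists deposited by the authors, and the caller, the aligner, the depth and the scale were not given in the sources used here. Lists on ce10 were not used. Genes were those of Ensembl release 115 on WBcel235, with RefSeq symbols where Ensembl had none. Summits (column 2 plus column 10, made 1-based) were counted in windows with Python 3.11.15, pandas 2.3.3, numpy 2.4.6 and scipy 1.17.1. Neighbours were genes of every type except piRNA. The counting was checked on simulated data. With 1 group no test was run.

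Members, lists and rules were chosen with earlier results of these data known. Genes were named if they had an IDR peak, were among the 20 with the highest pooled signal or the 5 with the most pooled summits, or belonged to the infection, reproductive or axon lists, together with the largest cluster and those with an IDR peak; other genes and clusters were named after their values were seen. Shares by signal strength, by small RNA neighbour, by gene length (on arms and in all regions) and by repeated 31-base sequences were added after the data were seen. Promoters were cut from the genome, and the planned description of protein sequences was not made.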

Additional observations from a re-analysis of the deposited data

How the results depend on the processing

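With the window, the overlap rule and the set of genes varied, the count of 69 C-type lectin genes with a pooled site stayed between 47 and 82. The lowest count came with the gene body alone (44.3% of all protein-coding genes) and the highest with flanks of 1000 bp (60.3% of all). It was 42 with the sites above the median signal of the list, against 41.6% of all protein-coding genes. With the strongest 1341, 5000 and 10000 sites it was 5, 20 and 29, and the 5 repeats the IDR count. The other replicate's own list gave 80 without replicate 1 and 88 without replicate 2. The IDR count of 5 was the less stable one: 2 with flanks of 200 bp, 1 with the gene body alone, 1 without neighbours' summits, and 1 without genes near a small RNA gene. The IDR share of all protein-coding genes, 8.23%, fell as well, in the same order to 6.33%, 3.16%, 4.99% and 6.76%. An IDR list needs both replicates, so without replicate 1 and without replicate 2 the strongest 1341 candidates of the other one were used, which gave 5 and 8. The 10 genes owing every site to a neighbour became 2 with flanks of 200 bp and 21 with flanks of 1000 bp. Arms defined more narrowly, by 4 equal parts in place of 3, put 65% of the family on arms (38.3% of all genes), and gaps of up to 50 kb put 52.1% in clusters. The 49 genes with sites in both replicates became 24 when summits had to lie within 100 bp. No paired analysis was possible because there was 1 group. Read depth being unknown, an absent site cannot be told from one below the limit of a list.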

Other observations

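The bases before the snoRNA gene at clec-180, which held the family's strongest summit, contain the letters GTTCGANNC, the core of the B box that lies inside tRNA genes. They were searched on both strands in 101-base windows around summits, and were found in the windows of clec-125 and clec-126, clec-127 and clec-180 and not in that of clec-142. No tRNA gene is annotated in the clec-180 window. Of 1319 IDR summits on nuclear chromosomes 108 had the letters (8.19%), 75 of them with an annotated tRNA gene in the window and 33 without. Of 29977 pooled summits 1.65% had them.

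Of 25 clec pseudogenes, which are not among the 240, 6 had a pooled summit (24.0%) and 0 an IDR peak. The share over all pseudogenes was not counted, so whether these values are low for pseudogenes cannot be said.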
